A study of Mus musculus with 4 samples.

Results

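Elongating spermatids of 4 single-cell libraries of mouse testis were compared between 2 libraries in which the gene Phf7 was low and 2 in which it was high. A library is known here only by the suffix of its cell barcodes, 1 to 4. Transcripts were counted as unique molecular identifiers (UMI, each for 1 captured molecule) and are given as CPM, the UMI of a gene for every 1000000 UMI of the cells named. Over all barcodes Phf7 was at 77.4 and 105 CPM in suffixes 1 and 4. It was at 470 and 635 CPM in suffixes 2 and 3. Suffixes 1 and 4, under 200, are called the low-Phf7 libraries, and suffixes 2 and 3, over 400, the high-Phf7 libraries. Cells were taken as elongating spermatids where Tnp1, Tnp2, Prm1 and Prm2 made up at least 10% of their UMI, with at least 500 detected genes, at most 10% mitochondrial UMI and at most 2 UMI over 6 Sertoli cell genes. The rule held for 7524 of 29968 kept cells, or 25.1%, out of 32273 barcodes. Within them Phf7, which chose the pairs, was at 42.2 and 54.4 CPM in suffixes 1 and 4 and at 378 and 350 in suffixes 2 and 3. They gave between 14103630 and 20099887 UMI per library.

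Testes of C57BL/6 mice at postnatal day 63 were dissociated and profiled by droplet sequencing of transcript 3' ends. Per the labels, 2 samples were Phf7 f/f, in which Phf7 carries floxed alleles, and 2 were Phf7 tKO, with the genotype Stra8-Cre:Phf7 f/f, so the floxed alleles are shared by all 4. Stra8-Cre recombines in male germ cells and not in the supporting cells of the testis. The labels tie no suffix to either genotype, and separate animals are not stated. Because the pairs were chosen from measured Phf7, no genotype is assigned, Phf7 is left out of every count, no test is made and every result is a description. Values are given for each library, the low-Phf7 pair first (suffix 1, then 4) and the high-Phf7 pair second (suffix 2, then 3).

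In late spermatids most histones are taken off the DNA, transition proteins (Tnp1, Tnp2) occupy it for a time, and protamines (Prm1, Prm2) then pack it into the sperm head. Histone acetylation, which BRDT reads through its bromodomains, and histone ubiquitination, which PHF7 and RNF8 can place, precede the removal. The study's title asks how PHF7 acts on BRDT and on this exchange. Transcription stops as the chromatin condenses, and the RNA of late spermatids is largely stored for later translation.

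Few genes set the pairs apart, and 8 of the 9 that did lay on chromosome 6. Over the gated cells, 6795 genes besides Phf7 had at least 200 UMI over the 4 libraries. A gene is called separated here where the lower library of one pair was at least 1.5 times the higher library of the other. By this rule 9 genes were separated, or 0.132%, with 7 higher in the high-Phf7 pair (0.103%) and 2 higher in the low-Phf7 pair (0.0294%). At a ratio of at least 2 there were 4 (0.0589%), all of chromosome 6 and all higher in the high-Phf7 pair, and 0 the other way. Among both the 9 and the 4 is Gm19757, which passed the minimum of 200 UMI through the high-Phf7 pair alone and so had to differ. The ninth gene, Mrps6, was on chromosome 16. With TMM size factors in place of the library totals the counts were 6 and 3, with 8 on chromosome 6 and 1 elsewhere. Left out in turn, suffixes 1, 2, 3 and 4 gave 35, 17, 62 and 194 genes higher in the high-Phf7 libraries. They gave 3, 13, 17 and 138 genes higher in the low-Phf7 libraries. Of these genes, 10, 9, 13 and 29 were on chromosome 6 and 28, 21, 66 and 303 elsewhere. Fewer libraries then had to differ, so a count could only stay or rise. Why it rose more for some libraries was not tested. The count in each direction also moved by over 1.5 times with a minimum of 50 UMI, with 42 genes higher in the high-Phf7 pair and 20 higher in the low-Phf7 pair. Of these, 14 were on chromosome 6 and 48 elsewhere. As a mean of CPM over cells the counts were 14 and 4, with 6 on chromosome 6 and 12 elsewhere, so most of the genes lay on other chromosomes under both settings.

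The genes with the most distinct levels were Ppp4r2, Gm44205 and Gm19757, all on chromosome 6 and all higher in the high-Phf7 pair. The bases before the start of each are shown because their transcripts differed together between the pairs. The sequences are from RefSeq windows of 250 bases on build GRCm38.p6, in the direction of the gene. The window of Ppp4r2 was cut to 234 bases, since its last 16 lay past the gene start in GENCODE M21.

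Ppp4r2, chr6:100833388-100833621, plus strand: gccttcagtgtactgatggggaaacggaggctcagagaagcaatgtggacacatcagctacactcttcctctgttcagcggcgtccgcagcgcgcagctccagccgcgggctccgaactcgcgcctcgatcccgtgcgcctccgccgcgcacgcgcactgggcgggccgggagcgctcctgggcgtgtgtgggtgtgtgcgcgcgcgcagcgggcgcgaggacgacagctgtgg

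Gm44205, chr6:89285726-89285975, minus strand: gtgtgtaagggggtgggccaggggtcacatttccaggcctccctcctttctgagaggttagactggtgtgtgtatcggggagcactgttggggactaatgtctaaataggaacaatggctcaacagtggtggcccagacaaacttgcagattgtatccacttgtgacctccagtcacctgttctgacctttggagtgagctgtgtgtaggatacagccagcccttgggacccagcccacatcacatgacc

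Gm19757, chr6:105492669-105492918, minus strand: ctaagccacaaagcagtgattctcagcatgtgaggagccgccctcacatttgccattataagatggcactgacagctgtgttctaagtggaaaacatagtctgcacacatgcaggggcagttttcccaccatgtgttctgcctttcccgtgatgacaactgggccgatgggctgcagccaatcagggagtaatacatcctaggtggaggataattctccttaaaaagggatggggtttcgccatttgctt

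The cAMP response element, TGACGTCA, to which the spermatid transcription factor CREM binds, its short site TGACG and TATAAA were in none of these 3 windows, so no letters are in capitals. Searched on both strands of 32851 RefSeq windows of the same length, TGACG was in 17.8%, TATAAA in 12.4% and TGACGTCA in 1.55%. Every full element also holds the short site. The window of Hdac11, a gene described below, is not shown, since 150 of its 250 bases lie past the GENCODE start, and its TGACG begins 41 bases after that start. Of 11 genes looked up, 9 matched a RefSeq window, and Gm44205 is listed there as 4930512J16Rik.

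Ppp4r2 encodes a regulatory subunit of protein phosphatase 4, a serine/threonine phosphatase that acts in the repair of DNA breaks. It lies at chr6:100833622-100869934 on the plus strand (mm10, GENCODE M21). It was at 26.5 and 26.6 CPM in the low-Phf7 libraries and at 181 and 182 in the high-Phf7 libraries, from 483 and 525 against 2549 and 3650 UMI. The 2 libraries of each pair were almost equal, and the pairs were far apart. The closest libraries of the 2 pairs differed 6.79-fold, with a 95% interval of 6.18 to 7.48 that, like all intervals here, covers counting error only.

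Gm44205, a long intergenic noncoding RNA (chr6:89269511-89285725, minus strand), was at 65.8 and 56.9 CPM in the low-Phf7 pair and at 316 and 334 in the high-Phf7 pair. The closest libraries differed 4.81-fold (4.51 to 5.13). This RNA carries only a gene model name.

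Gm19757, another long intergenic noncoding RNA (chr6:105481266-105492668, minus strand), had no UMI in either low-Phf7 library. It had 151 and 198 UMI in the high-Phf7 libraries, or 10.7 and 9.85 CPM. With 0 UMI set to a floor of 3 counts its closest ratio was 59.8, a value that depends on the floor. Its counting interval, taken without the floor, began at 48.2. It passed the minimum of 200 UMI through the high-Phf7 pair alone and so had to differ. Without it 8 genes were separated, 7 of them on chromosome 6. In suffix 1, 0 of 1752 cells had a UMI, which allows a share of up to 0.171%, and in suffix 4, 0 of 2081, which allows up to 0.144%. These limits are for cells with a UMI, not for cells with the RNA, since in the high-Phf7 pair only 9.27% and 8.18% of cells had one. It was also without a UMI in both low-Phf7 libraries in every other set of cells examined below.

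Fam188b, also known as Mindy4, encodes a deubiquitinase of the MINDY family (chr6:55203383-55320222, plus strand). It was at 4.45 and 4.97 CPM in the low-Phf7 pair and at 11.1 and 10.7 in the high-Phf7 pair, with the closest libraries 2.15-fold apart (1.69 to 2.76). Snrnp27, a protein of the spliceosome (chr6:86675151-86684522, minus strand), was at 5.33 and 7.19 against 15.2 and 11.4 CPM, a closest ratio of 1.59 (1.28 to 1.97). These were the only protein-coding genes of chromosome 6 besides Ppp4r2 among the 9.

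The remaining 2 genes that were higher in the high-Phf7 pair rested on few counts. Gm15612 (chr6:88842854-88847274, plus strand), which overlaps Podxl2 on the other strand, was at 1.81 and 2.18 against 3.69 and 3.68 CPM. Its closest ratio was 1.69 (1.15 to 2.52), from 33 and 43 UMI in the low-Phf7 libraries. Mrps6, a protein of the mitochondrial ribosome (chr16:92058270-92112227, plus strand), was at 2.25 and 1.98 against 3.55 and 3.68 CPM. Its closest ratio was 1.57 (1.02 to 2.44), and it overlaps Slc5a3 on the same strand. Gm15612 and Mrps6 were not separated when 1000 genes or no Sertoli UMI were required, and Mrps6 also not with TMM size factors, with a gate of 5% or without a Sertoli limit. Gm15612 was also not separated as a mean over cells.

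Gm44071 and Gm44028 were the 2 genes higher in the low-Phf7 pair, both noncoding and both on chromosome 6. Gm44071 was at 9.45 and 6.84 against 3.76 and 3.28 CPM, a closest ratio of 1.82 (1.32 to 2.55). Gm44028 (chr6:52509889-52514036, plus strand) was at 10.3 and 9.37 against 5.96 and 6.22, a closest ratio of 1.51 (1.19 to 1.91), just inside the limit. It was not separated with no Sertoli UMI, as a mean over cells, or with equal weights over bins of the Tnp1 share described below.

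**Figure D1:**
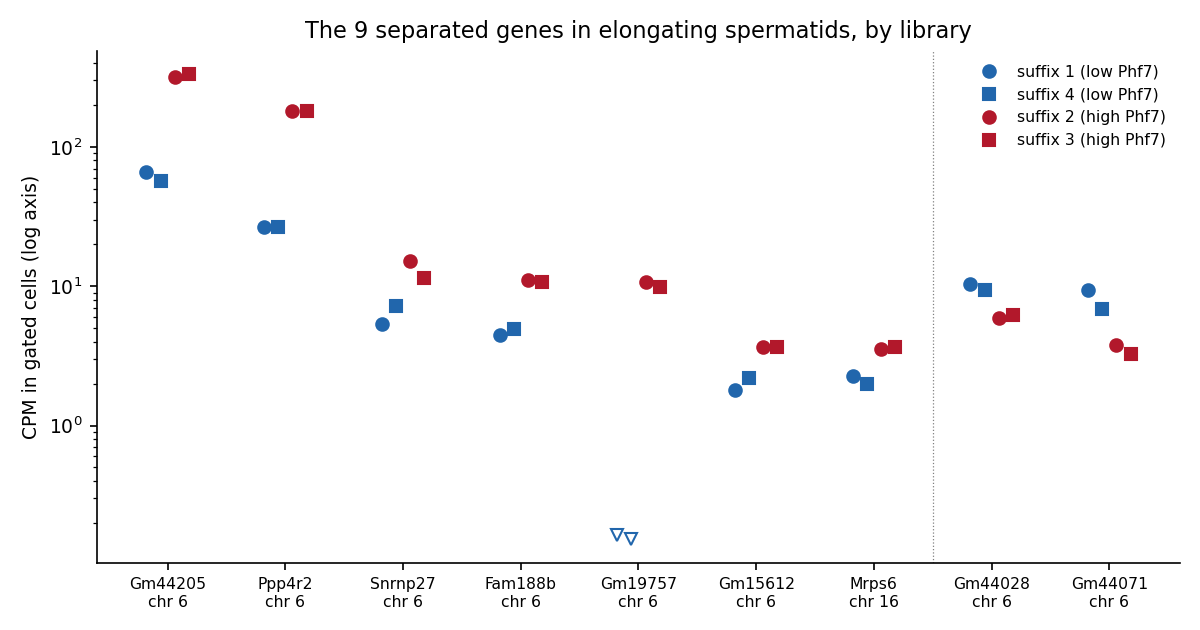
Level of each of the 9 separated genes in the gated cells of each library, in CPM on a log axis, with blue for the low-Phf7 and red for the high-Phf7 libraries and open triangles for 0 UMI drawn at the floor of 3 counts. Ppp4r2 sits at 26.5 and 26.6 in blue and at 181 and 182 in red, and the 2 genes right of the dotted line are higher in the low-Phf7 pair.

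Just under the limit stood Hdac11 (chr6:91156665-91174692, plus strand), a histone deacetylase. It was at 50.2 and 54.3 CPM in the low-Phf7 pair and at 84.7 and 80.5 in the high-Phf7 pair, a closest ratio of 1.48 (1.37 to 1.60). It rested on 914 to 1618 UMI per library. Msr1, a scavenger receptor gene on chromosome 8, was at 2.53 and 3.34 against 5.03 and 4.93 CPM (1.47). On the other side 4921509C19Rik, on chromosome 2, was at 6.10 and 2.99 against 2.06 and 1.89 CPM (1.45). At a looser closest ratio of 5 to 4 the count was 56 genes (0.824%), 48 higher in the high-Phf7 pair (0.706%) and 8 in the low-Phf7 pair (0.118%). The other chromosome 6 genes in this range were 1600020E01Rik, Asun and Dctn1, higher in the high-Phf7 pair, and 5430402O13Rik, Herc6 and Ggct, higher in the low-Phf7 pair.

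Chromosome 6 held 350 of the 6795 genes, or 5.15%, and 8 of them were separated, or 2.29%, against 1 of 6445 genes elsewhere (0.0155%). At the ratio of 5 to 4 it held 15 genes (4.29%), against 41 of the genes elsewhere (0.636%). The 15 went both ways, with 10 higher in the high-Phf7 and 5 in the low-Phf7 pair. Chromosome 14, which carries Phf7, had 0 of 261 genes at that ratio. The 8 separated genes spanned 52.98 Mb, from Gm44028 to Gm19757. That span held 128 of the genes, of which 120 were not separated. Of the 128, 81 overlapped between the pairs, while over all genes 1816 of 6795 (26.7%) did not overlap. Inside the span 13 genes reached 5 to 4, among them the 8, and outside it 2 of 222 chromosome 6 genes did. The span was drawn from the 8 genes, which lie in it by construction. Inside against outside is therefore no test of where the differences lie.

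Levels of genes next to the separated ones are given as a description. Over all genes 26.7% did not overlap between the pairs, so overlap was common everywhere. Gxylt2, which ends 22.7 kb before Ppp4r2, was at 4.94 and 2.63 CPM in the low-Phf7 pair and at 2.91 and 3.33 in the high-Phf7 pair. Chl1, a cell adhesion gene that starts 2641 kb after Ppp4r2, was at 581 and 572 against 573 and 579 CPM. Mxd1 and Gmcl1 flank Snrnp27 at 5.99 and 7.25 kb, and Chchd6 and Trnt1 are the next counted genes after Gm44205 and Gm19757. All 4 overlapped between the pairs. Gm15612 and Gm44205, both separated, were neighbours among the counted genes, 422 kb apart.

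**Figure D2:**
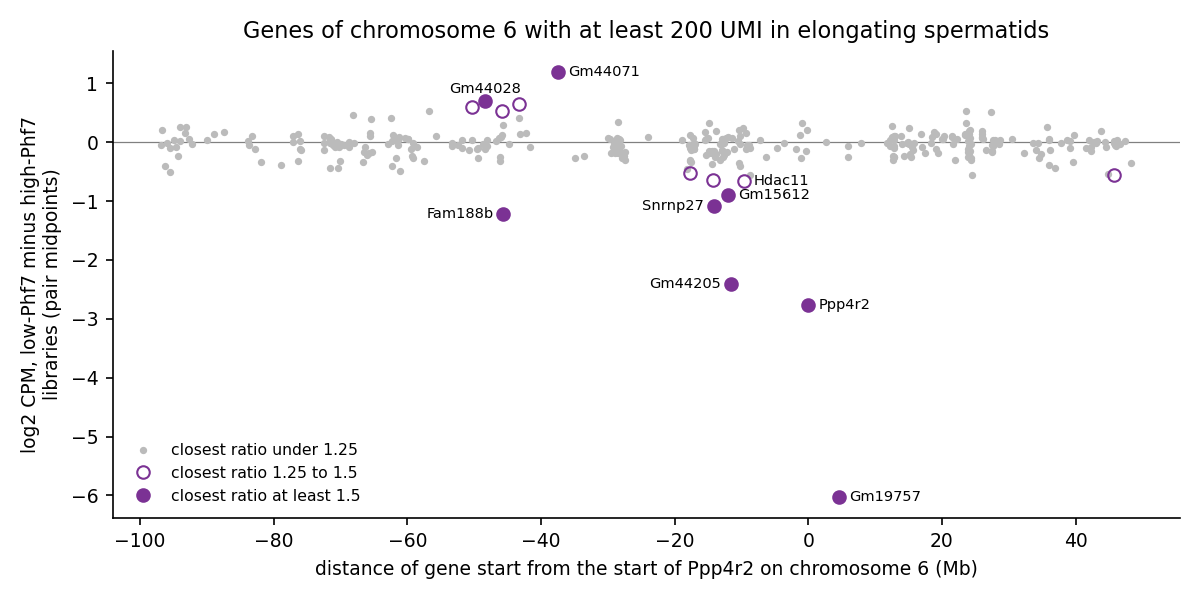
Each point is a chromosome 6 gene with at least 200 UMI, placed by the distance of its start from that of Ppp4r2 (Mb) and by the difference of the pair midpoints of log2 CPM, low-Phf7 minus high-Phf7 libraries, where 0 UMI was set to 3 counts. The 8 filled points lie on both sides of 0 within a span of 52.98 Mb, among grey points that lie near 0, and the position of Gm19757 depends on the floor.

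Across all genes the pairs differed little. The median difference of the pair midpoints was -0.04 on the log2 scale, with quartiles of -0.15 and 0.05. Without any limit on the ratio, 1346 genes (19.8%) had both high-Phf7 libraries above both low-Phf7 libraries, and 470 (6.92%) had the reverse, 26.7% in all. This balance depended on the scaling. With TMM size factors 10.6% of genes were higher in the high-Phf7 pair and 16.8% in the low-Phf7 pair, with a median of 0.03. One library stood apart within its own pair. Over the 3507 genes with at least 1000 UMI, suffixes 1 and 4 differed by a median of 0.14 (log2, absolute), more than suffixes 3 and 4 of different pairs, at 0.08, and suffix 1 differed from suffixes 2 and 3 by 0.13 and 0.13. Median depth was 8842 and 7905 UMI per cell in the low-Phf7 pair and 7601 and 7056 in the high-Phf7 pair, so it moved with the pairs. Its part in the differences was not tested beyond thinning. When cells were thinned to 2000 UMI, Ppp4r2 and Gm44205 still reached 200 UMI and remained separated, with closest ratios of 6.23 and 4.76. The other 7 of the 9 fell under that minimum, at 42 to 192 UMI, so they were no longer counted, while their pairs still did not overlap. With the gate raised to 20% of UMI the closest ratios of Ppp4r2 and Gm44205 were 6.28 and 4.29, and the other 7 had 10 to 70 UMI and were not counted. The thinned count was 5 genes of 3636, with 2 on chromosome 6 and 3 elsewhere.

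The gated cells carried elongating spermatid RNA by markers that the gate did not use. The 12 markers, among them Odf1, Smcp and Gapdhs, summed to 49579 and 53035 CPM in the low-Phf7 pair and to 51837 and 52148 in the high-Phf7 pair. In kept cells with under 2% transition protein and protamine UMI the same sum was between 7046 and 7731. None of the 12 was at 0. Round spermatid markers summed to between 614 and 792 CPM in the gate, and spermatocyte markers to between 401 and 462. Sertoli markers, 12 of 12 detected, summed to 15.2 and 14.7 against 20.6 and 18.4 CPM, higher in the high-Phf7 pair. When no Sertoli UMI was allowed, 6 of the separated genes remained separated. Gm15612, Gm44028 and Mrps6 did not. The part of Sertoli RNA in the results was not tested. Macrophage markers summed to 223 and 214 against 236 and 206. Of the gated cells, 34 carried 17 barcode sequences found in more than 1 library.

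The gated cells were 22.9% (exact interval 21.9 to 23.8) and 26.2% (25.2 to 27.2) of kept cells in the low-Phf7 libraries. They were 21.1% (20.1 to 22.1) and 30.0% (29.0 to 31.1) in the high-Phf7 libraries, so the pairs overlapped. The libraries of the high-Phf7 pair were the lowest and the highest of the 4. Just inside the gate, between 10 and 11%, lay 61 to 75 cells per library, and just outside it, between 9 and 10%, lay 54 to 64.

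The RNAs of the transition proteins and protamines, which chose the cells and are given as a description, were at like levels in both pairs. Tnp1 was at 17497 and 13259 CPM against 13832 and 14373. Tnp2 was at 30821 and 29903 against 28238 and 27844, the only one of the 5 in this list whose pairs did not overlap, by 1.06-fold. Prm1 was at 43301 and 34054 against 33583 and 36933, Prm2 at 78749 and 82242 against 79711 and 81851. Prm3, a related acidic protein that stays in the cytoplasm and was not in the gate, was at 2511 and 1956 against 1863 and 2056. For Tnp1, Prm1 and Prm3, suffix 1 was the highest library, above both high-Phf7 libraries, while suffix 4 lay within or below their range.

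The share of Tnp1 in Tnp1 plus Prm2 falls as spermatids mature, since Tnp1 RNA is lost before Prm2 RNA. Its median over cells was 0.227 and 0.147 in the low-Phf7 libraries and 0.189 and 0.136 in the high-Phf7 libraries. The order was suffix 1, 2, 4 and 3, so the pairs overlapped. The difference of the pair means was 0.0245, and with 1 library left out it ran from -0.0157 to 0.0646. It was below 0 without suffix 1, at -0.0157, and without suffix 3, at -0.00176. The spread within a library was wide, with interquartile ranges of 0.278 and 0.228 in the low-Phf7 and 0.242 and 0.259 in the high-Phf7 pair, and SDs over cells of 0.135 and 0.111 against 0.116 and 0.127.

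In each library the cells fell into a late group near 0 and an early group around 0.2 to 0.3, with few between. Limits of 0.02 and 0.2 were drawn after this was seen. Cells at 0.2 or more were 52.2% and 43.4% in the low-Phf7 pair and 48.1% and 46.0% in the high-Phf7 pair. Cells between the limits were 13.2% and 21.2% against 15.3% and 15.2%. Cells under 0.02, with little Tnp1 RNA beside Prm2, were 34.6% (32.4 to 36.9) and 35.4% (33.4 to 37.5) against 36.7% (34.2 to 39.2) and 38.8% (36.8 to 40.9). The last shares were lower in both low-Phf7 libraries, but the intervals of the closest libraries, suffixes 4 and 2, overlapped. Within the early group the median was 0.287 and 0.242 against 0.251 and 0.270, with both extremes in the low-Phf7 pair.

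**Figure D3:**
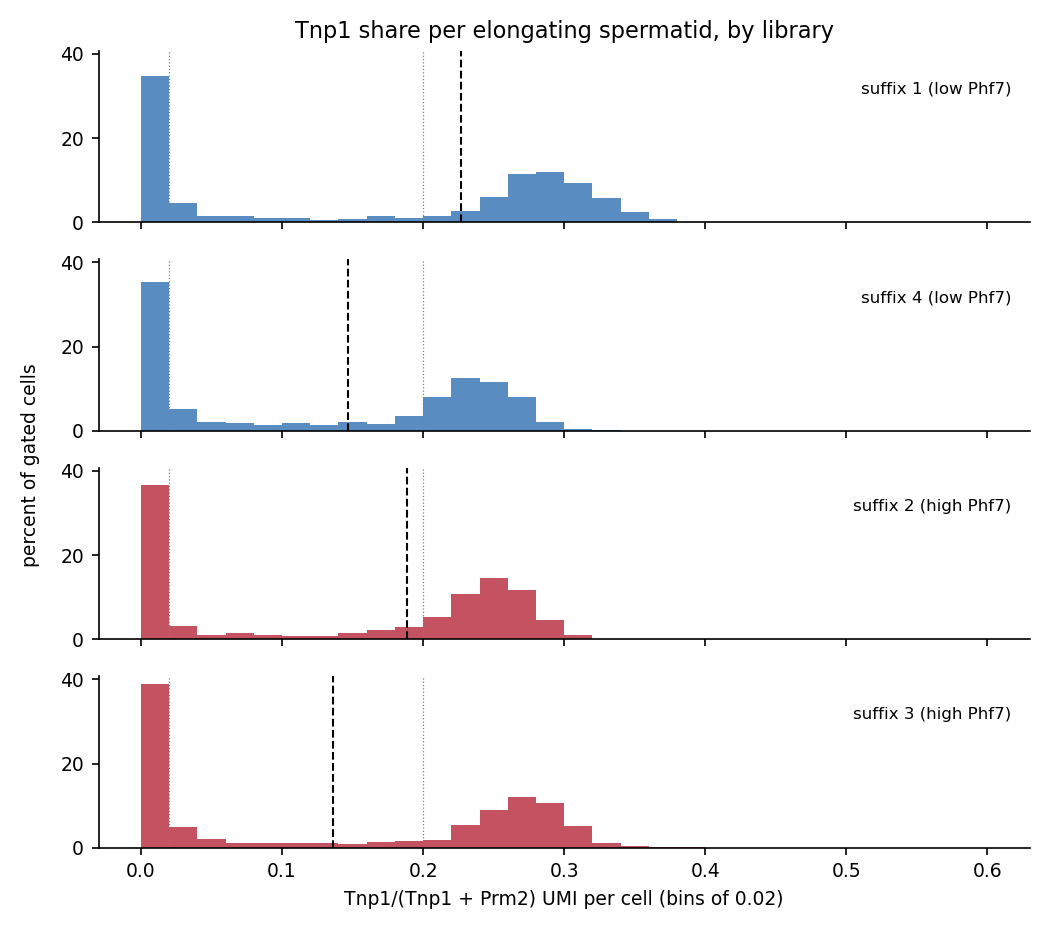
Percent of the gated cells of each library (vertical axis) by the Tnp1 share of Tnp1 plus Prm2 UMI in bins of 0.02 (horizontal axis), with the library median dashed and the limits of 0.02 and 0.2 dotted. All 4 libraries have a narrow peak near 0 and a broad one between 0.2 and 0.35, and the medians of 0.227, 0.147, 0.189 and 0.136 fall between or beside these peaks.

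Ppp4r2 and Gm44205 were separated in each of these groups of cells. The groups are parts of the cells from which both genes were chosen, so this is no test. Ppp4r2 was at 22.04 and 19.7 against 133 and 139 CPM in cells at a Tnp1 share of 0.2 or more. It was at 29.9 and 27.9 against 172 and 172 between the limits, and at 38.2 and 40.5 against 294 and 272 under 0.02. Both pairs were thus highest in the cells with the least Tnp1. Gm44205 was at 75.7 and 70.4 against 356 and 367 in the early group, at 81.7 and 61.9 against 394 and 445 between the limits, and at 27.2 and 23.6 against 180 and 208 in the late group. Its level was lowest in the late group in all 4 libraries. Hdac11 was at 49.5 and 52.2 against 92.3 and 88.7 in the late group, where it passed the limit with a closest ratio of 1.70. Counted again in each group, 6 of 5669 genes were separated in the early group, 2 of 3018 between and 5 of 3583 in the late group. All of these were on chromosome 6. The 6 of the early group include Gm19757, at 0 and 0 against 110 and 131 UMI. It again passed the minimum through the high-Phf7 pair alone. The 5 of the late group were Ppp4r2, Gm44205, Hdac11, 1600020E01Rik and Ptcd3.

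Levels were also taken in kept cells with less transition protein and protamine RNA. In kept cells with 5 to 10% transition protein and protamine UMI, Ppp4r2 was at 49.6 and 41.2 against 176 and 182 CPM. In cells under 2%, which hold earlier germ cells and supporting cells, it was at 115 and 96.2 against 110 and 109, so the pairs overlapped. Gm44205 was at 3.28 and 3.97 against 14.4 and 16.1 under 2%. In kept cells outside the gate with over 2 Sertoli UMI it was at 15.3 and 8.55 against 65.0 and 52.5. Its level was higher there than under 2%, and whether it is expressed in the cells under 2% was not tested. Elongating spermatid markers summed to between 8596 and 13220 CPM in the cells with Sertoli UMI and to between 7046 and 7731 under 2%. Hdac11 overlapped in both sets, at 219 and 150 against 162 and 176 between 5 and 10% and at 39.1 and 39.3 against 39.3 and 33.7 under 2%. Snrnp27 was at 94.9 and 99.5 against 129 and 136 under 2%, a closest ratio of 1.30 that did not reach the limit. Fam188b was at 49.3 and 51.8 against 56.9 and 57.8 there, while Gm44071 was separated, at 20.6 and 12.8 against 6.53 and 6.56. Whether these differences vary between the cell sets was not tested. The pairs of Mrps6 overlapped under 2%, with suffix 1 at 23.0 and suffix 2 at 21.6 CPM. Separated genes of these sets were not all on chromosome 6. Between 5 and 10%, 2 of the separated genes were on chromosome 6 and 3 elsewhere, of 4429 genes counted. Under 2% these were 4 and 3, of 11484. In the cells with over 2 Sertoli UMI they were 4 and 16, of 6403.

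**Figure D4:**
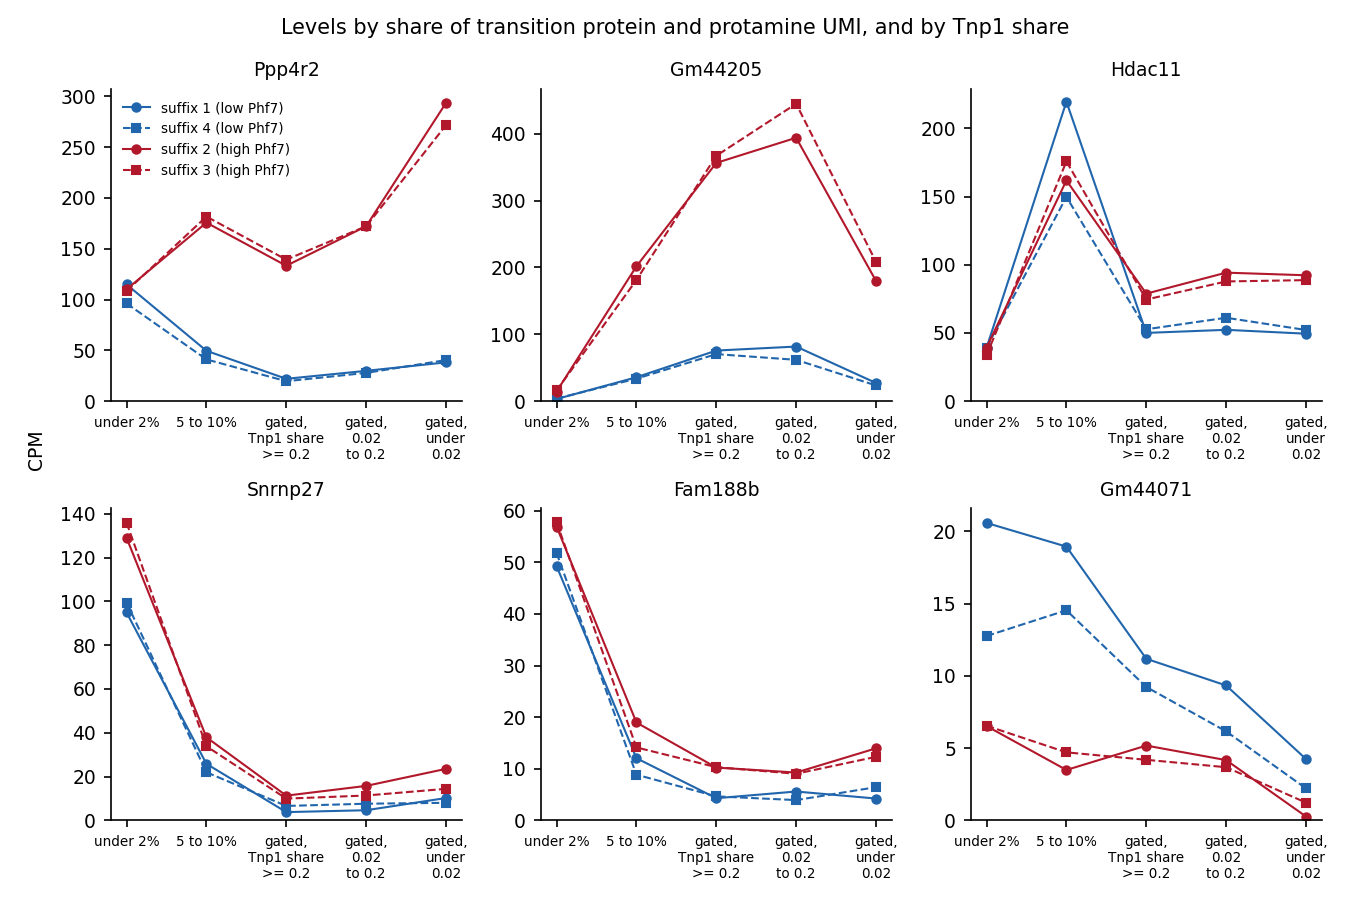
Level of 6 chromosome 6 genes in CPM (vertical axes, each from 0) in kept cells under 2% and at 5 to 10% transition protein and protamine UMI and in gated cells by Tnp1 share, 1 line per library, blue low-Phf7 and red high-Phf7. The red and blue lines of Ppp4r2 overlap under 2%, at 96.2 to 115, and do not overlap in the other sets, while those of Gm44205 and Gm44071 do not overlap in any set. Whether Gm44205 is expressed in the cells under 2% was not tested.

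None of the 255 members of 15 gene lists with enough UMI was separated, of 342 members found and 346 listed. Hdac11 was the only one to reach a closest ratio of 5 to 4. Without a ratio limit, 50 members (19.6%) were higher in both high-Phf7 libraries and 11 (4.31%) in both low-Phf7 libraries, against 19.8% and 6.92% of all genes. Under TMM scaling these were 24 (9.41%) and 41 (16.1%), against 10.6% and 16.8% of all genes. The median log2 difference over the members was -0.03, against -0.04 over all genes.

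In the list of histone acetylation and bromodomain genes, 9 of 21 members (42.9%) were higher in both high-Phf7 libraries, against 19.8% of all genes. In both low-Phf7 libraries 0 were higher, against 6.92% of all genes, and the median was -0.18. With TMM size factors the counts were 5 (23.8%) and 2 (9.52%), against 10.6% and 16.8% of all genes. The median was then -0.12. Apart from Hdac11 the closest ratios of the 9 were at most 1.16, the value of Hdac3, another deacetylase. Kat7, an acetyltransferase of histone H3, was at 2.36 and 2.63 against 3.90 and 2.89 CPM. Brd2, a bromodomain protein of the same family as BRDT, was at 13.6 and 17.3 against 21.3 and 17.5. Brdt itself was at 12.96 and 14.3 CPM against 16.8 and 14.3, so the pairs overlapped. It rested on 236 to 287 UMI per library. Cdyl, a chromodomain protein that lowers histone crotonylation in spermatids, was at 282 and 171 against 211 and 191. Morf4l1, a subunit of histone acetyltransferase complexes, was at 533 and 543 against 564 and 501.

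Among 30 genes of histone ubiquitination, ubiquitin ligases and the proteasome, 8 (26.7%) were higher in both high-Phf7 libraries, against 19.8% of all genes. In both low-Phf7 libraries 0 were higher, against 6.92% of all genes. With TMM size factors the counts were 5 (16.7%) and 6 (20%), against 10.6% and 16.8% of all genes. The median was -0.07, or 0.00 with TMM. Rnf8, the ligase that ubiquitinates histones H2A and H2B, had only 18 and 20 UMI against 15 and 19. Ube2n, its partner ubiquitin-conjugating enzyme, was at 2935 and 3009 CPM against 3054 and 3276. Psma8, the testis form of a proteasome core subunit, was at 3.35 and 4.05 against 4.96 and 5.57, a closest ratio of 1.22. Psme4, the proteasome activator that recognises acetylated histones, was at 20.7 and 19.5 against 19.4 and 20.9. Ubb, a polyubiquitin gene, was at 1605 in suffix 1 and at 2763 in suffix 4, against 2905 and 2689, so suffix 1 alone was low.

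The order of the histone variants depended on the scaling, as that of all genes did. Of 12, 1 (8.33%) was higher in each pair, with a median of -0.07. Over all genes 19.8% were higher in the high-Phf7 and 6.92% in the low-Phf7 pair. With TMM size factors 3 (25%) were higher in the low-Phf7 and 0 in the high-Phf7 pair, with a median of -0.0032. Over all genes these shares were 16.8% and 10.6%. The spermatid linker histones H1fnt and Hils1 were at 2424 and 2497 against 2505 and 2387, and at 1792 and 1481 against 1582 and 1414 CPM. H2afb1, a short H2A variant of spermatids, was at 1699 and 1643 against 1465 and 1616, a closest ratio of 1.02. Hist1h1t, the linker histone of spermatocytes, had 4 and 13 UMI against 4 and 10 and was not counted. Of 10 chromatin remodelling and DNA break genes, 1 (10%) was higher in the low-Phf7 and 4 (40%) in the high-Phf7 pair. Those shares were 6.92% and 19.8% over all genes. The 1 was Chd5, a remodeller needed for histone removal, at 74.96 and 65.7 against 58.3 and 61.5. The balance turned with TMM size factors, as it did over all genes. There 3 (30%) were higher in the low-Phf7 and 2 (20%) in the high-Phf7 pair, against 16.8% and 10.6% of all genes. Hmgb4, a high mobility group protein of spermatids, was at 5341 and 5671 against 5628 and 5051.

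Structural and metabolic genes of the sperm lay close between the pairs. Of 20 acrosome genes, 33 flagellum genes and 20 genes of energy metabolism and polyamines, 5, 5 and 6 were higher in both high-Phf7 libraries. These were 25%, 15.2% and 30%, against 19.8% of all genes. In both low-Phf7 libraries 0 were higher, against 6.92% of all genes, and the medians were -0.11, -0.02 and -0.06. With TMM size factors 2, 2 and 2 were higher in the high-Phf7 pair (10%, 6.06% and 10%, against 10.6% of all genes). In the low-Phf7 pair 1, 5 and 0 were then higher (5%, 15.2% and 0%, against 16.8%). Smcp, a protein of the mitochondrial sheath, was at 13224 and 14813 against 14467 and 14354 CPM. Crisp2, a sperm protein of the acrosome and tail, was at 3939 and 4128 against 4188 and 4206. Spaca7, another acrosome protein, was at 172 and 128 against 157 and 134, and Gsg1, a germ cell protein, at 7008 and 7550 against 7133 and 7546. Oaz3, the spermatid antizyme of polyamine control, was at 7799 and 8508 against 8512 and 8304, and Gpx4, the selenoenzyme of the sheath, at 6704 and 7242 against 7150 and 7098.

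Of 18 kinase and signalling genes and 26 genes of transcription and mRNA storage, 1 (5.56%) and 6 (23.1%) were higher in both high-Phf7 libraries. In both low-Phf7 libraries 1 (5.56%) and 1 (3.85%) were higher. Over all genes the shares were 19.8% and 6.92%, and the list medians were 0.00 and -0.08. Under TMM 0 and 5 (19.2%) were higher in the high-Phf7 pair, against 10.6% of all genes. In the low-Phf7 pair 3 (16.7%) and 1 (3.85%) were higher, against 16.8%, with medians of 0.07 and -0.01. Tssk6, a kinase of the condensing spermatid, was at 2666 and 2724 against 2750 and 2819, and Spata6, needed for the neck of the sperm, at 2710 and 2849 against 2727 and 2848. Paip2, which restrains translation through the poly(A)-binding protein, was at 1256 and 1364 against 1307 and 1335. Fxr1, an activator of stored spermatid mRNA, was at 973 and 902 against 941 and 1043.

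The lists of general cell state showed no separated member either. Of 37 cytosolic ribosomal protein genes 4 (10.8%) were higher in both low-Phf7 and 2 (5.41%) in both high-Phf7 libraries, with a median of 0.05. Over all genes these shares were 6.92% and 19.8%. Under TMM the counts were 11 (29.7%) and 1 (2.70%), with a median of 0.12, against 16.8% and 10.6% of all genes. Rpl32 was at 1577 and 1613 against 1557 and 1631, and Rpl41 at 1487 and 1176 against 1149 and 1340. Of 8 mitochondrially encoded transcripts 2 (25%) were higher in the low-Phf7 and 0 in the high-Phf7 pair, against 6.92% and 19.8% of all genes. With TMM size factors the counts were 3 (37.5%) and 0, against 16.8% and 10.6% of all genes. The 2 included mt-Atp6 at 177 and 165 against 162 and 154, while mt-Co3 was at 172 and 165 against 161 and 166. Among 5 dissociation stress genes Hsp90aa1, a heat shock chaperone, was at 185 and 220 against 238 and 223, and Dnajb1, a heat shock cochaperone, at 336 and 364 against 351 and 340. Of 3 genes listed under p53 response and DNA damage none was higher in both libraries of a pair, against 26.7% of all genes. Ddit3 was at 76.5 and 92.6 against 88.5 and 87.2, and Mdm2 at 11.6 and 10.6 against 15.2 and 11.5. Among X-linked spermatid genes, 2 of 9 (22.2%) were higher in the high-Phf7 and 0 in the low-Phf7 pair, against 19.8% and 6.92% of all genes. With TMM size factors this turned to 0 and 2 (22.2%), against 10.6% and 16.8%, as the balance of all genes also turned. Akap4, the main protein of the fibrous sheath, was at 2151 and 2258 against 2183 and 2202, and Cypt3 at 637 and 514 against 598 and 521.

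**Figure D5:**
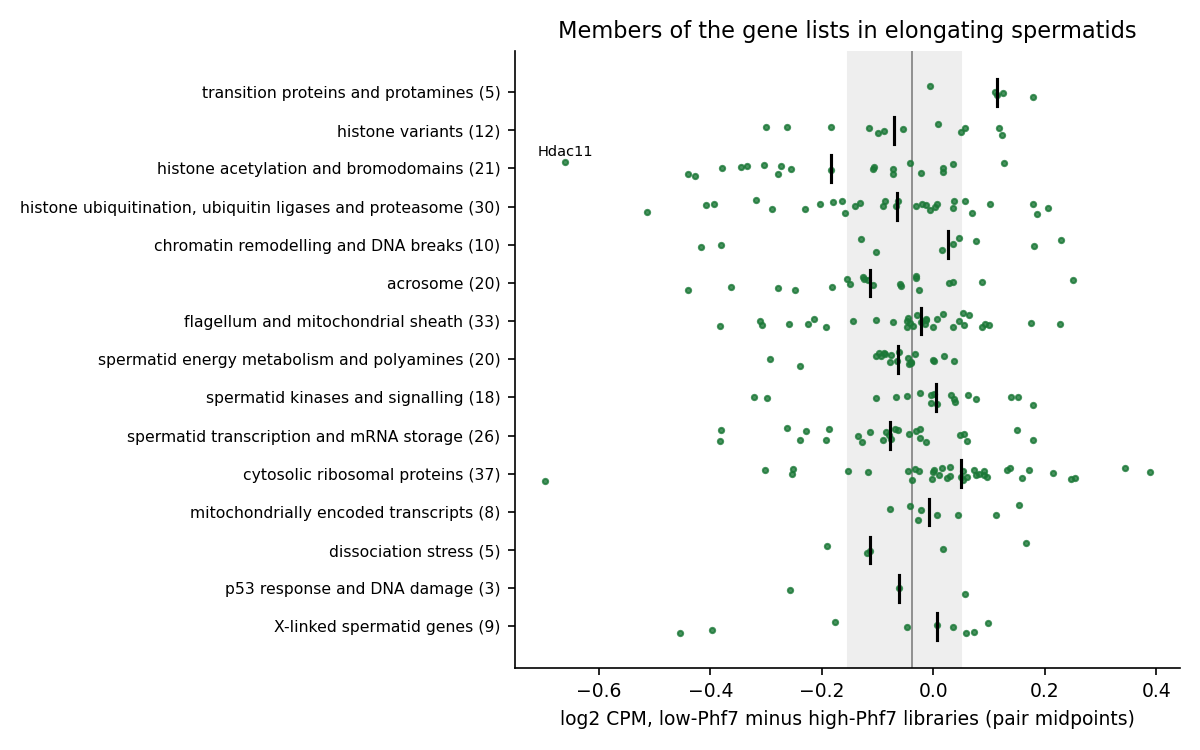
Each point is a list member with at least 200 UMI, placed by the difference of the pair midpoints of log2 CPM, low-Phf7 minus high-Phf7 libraries (horizontal axis), with the number of members in brackets and a bar at each list's median. The grey band spans the quartiles of all genes, -0.15 to 0.05, and most medians lie in it, with Hdac11 at -0.66 among the points furthest to the left.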

How the data were processed

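The authors deposited 1 matrix of UMI counts per gene and cell barcode for all 4 samples. Per the file headers it was made with Cell Ranger 3.0.2. The submitters' processing notes also name bcl2fastq 2.19.1.403 and mm10. The sources used here do not name the annotation release. The other deposited columns are gene IDs with symbols and cell barcodes. Only the barcode suffix tells libraries apart, and no label ties a suffix to a sample, so samples were not mapped and the libraries were not treated as replicates.

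Counts were summed over the gated cells of each suffix and divided by the suffix total to give counts per 1000000 (CPM). The rule on Phf7, the gate and the gene lists were chosen with earlier results of these data known. Cells were kept with at least 500 genes and at most 10% mitochondrial UMI, and no doublet caller was run. Positions came from GENCODE M21 (GRCm38, the assembly of mm10), which held 28339 of 28692 gene IDs. Outside the lists, the rule named up to 12 separated genes in each direction. In the lists it named every separated member, the 2 members with the most UMI and 13 fixed genes. Hdac11, Kat7, Brd2, Hdac3, Msr1, the neighbours and the genes listed by count were named after their values were seen, and Hdac11 lay just under the limit. Intervals are exact Clopper-Pearson for shares and exact conditional binomial for ratios, at 95%. Limits for a count of 0 are 3 counts of the total. The Tnp1 share was taken in cells with at least 20 UMI over Tnp1 and Prm2. The separation step was tested on simulated data. Alternatives changed the gate, the cell filters, the scaling (TMM from edgeR 4.0.16 in R 4.3.3), the weighting of cells, the minimum UMI, the ratio and the libraries used. Python 3.11.15, numpy 2.4.6 and scipy 1.17.1 were used.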

Additional observations from a re-analysis of the deposited data

How the results depend on the processing

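Over the 12 alternatives that used all 4 libraries, the 9 separated genes gave 108 values, and 106 kept their sign. The 9 were chosen for their separation in these same data, and several settings changed the cells or the scaling little. A kept sign is therefore no test of the differences. With a library left out a separated gene cannot change sign, so those values are not counted. The exceptions were Gm44028 at -0.31 and Mrps6 at 0.18 (log2, low-Phf7 minus high-Phf7) with the gate at 20% of UMI, which left 0.144% of kept cells in suffix 2 and 0.252% in suffix 4. Counts of separated genes, low-Phf7 pair higher and high-Phf7 pair higher, were 2 and 7. They were 0 and 2 with the gate at 20%, 4 and 14 as a mean over cells, 20 and 42 from 50 UMI, 0 and 2 from 1000 UMI, 8 and 48 at a ratio of 5 to 4, and 0 and 4 at a ratio of 2. The count higher in the low-Phf7 pair was 1 with no Sertoli UMI, 0 after thinning to 2000 UMI and 1 with equal weights over bins of Tnp1 share. With 1 library left out the counts ran from 3 to 138 and from 17 to 194. Fewer libraries then had to differ, so a count could only stay or rise, and its range was not explained. A minimum of UMI or a ratio acts by its own construction, and for the other settings the cause was not tested. Of 240 list medians, 229 moved by less than the spread within pairs.

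The gated share of kept cells in suffixes 1 to 4 was 31.9, 26.2, 34.7 and 31.8% with the gate at 5%, and 4.50, 0.144, 1.13 and 0.252% at 20%. It was 37.5, 31.4, 41.9 and 39.6% with 1000 genes, 24.9, 23.6, 32.7 and 29.1% with a mitochondrial limit of 5%, and 19.9, 28.9 and 24.8% in suffixes 2 to 4 with 20%. It was 20.6, 18.4, 27.0 and 23.9% with no Sertoli UMI and 24.2, 22.9, 31.7 and 27.6% with no Sertoli limit. The median Tnp1 share was 0.305, 0.275, 0.274 and 0.247 with the gate at 20%, 0.182 in suffix 1 from summed UMI, and 0.221 in suffix 3 with 1000 genes. The difference of the pair means ran from -0.0157 to 0.0646 with 1 library left out. No paired analysis was possible because the barcode suffixes carry no replicate number. With 200 UMI over 4 libraries, genes near that minimum have counting intervals that reach close to 1, so ratios under about 1.5 were not detectable for them.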
